A study of Mus musculus with 12 samples.

Results

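The TNF superfamily ligands (gene symbols starting Tnfsf) and receptors (starting Tnfrsf) were followed here through open chromatin. They were taken as every ATAC-seq peak whose deposited gene symbol is Tnfsf or Tnfrsf with a number, without Tnfrsf11a. This gave 250 peaks of 29 genes, out of 139999 peaks in all, and no measured value entered the choice. ATAC-seq counts the cuts that a transposase makes in accessible DNA, and a peak is a stretch where such cuts pile up. The deposited symbol is that of the gene a peak was assigned to, so a distal peak need not act on the gene whose name it carries. By annotation, 127 of the 250 peaks are distal intergenic, 58 lie at promoters, 53 in introns, 7 in 3′ UTRs, 4 in exons and 1 in a 5′ UTR. An intron, exon or UTR annotation can be that of another gene than the assigned one. Distances are those deposited with each peak, and peaks of a gene can be measured from different annotated starts.

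The study asked whether diabetes leaves a lasting state in macrophages grown from bone marrow. It holds 12 libraries, 2 in each of 6 groups, from male C57BL/6J mice allocated at 8 weeks of age. First-phase libraries came from cells labelled diabetic or healthy. Rest-phase libraries came from diabetic-trained or untrained cells kept for 7 days in medium of 5 mmol/L glucose with M-CSF. Second-phase libraries came from diabetic-trained or untrained cells that were then given 10 ng/mL IFN-γ with 100 ng/mL LPS for 16 h. Diabetic mice had been given streptozotocin, a toxin of pancreatic beta cells, at 42 to 45 mg/kg a day for 5 days, had blood glucose above 16.9 mmol/L and stayed hyperglycaemic for 6 weeks. What was injected into the control mice, how long first-phase cells were cultured, and whether the 2 libraries of a group came from separate animals are not given in the labels. The p-values below therefore measure library-to-library spread, and this may be technical only.

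TNF superfamily ligands are mostly trimeric membrane proteins that cluster receptors on a neighbouring cell or, once shed, at a distance. Receptors with a cytoplasmic death domain can recruit caspases, receptors without one bind TRAF adaptors and activate NF-κB, and decoy receptors bind ligand without signalling. Macrophages display costimulatory ligands of the family to T cells and use the TNF receptors themselves, while several other receptors are known mainly from lymphocytes.

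The promoters below show which starts of family genes had more and which less accessible chromatin in rest-phase than in first-phase libraries. Each is the RefSeq window from 250 bases before to 50 after the start (GRCm38.p6, the assembly of mm10), given on the strand of the gene, and each overlaps a peak of its gene that passed the test. Capitals mark matches, on either strand, to the letters GGGNNTTTC (NF-κB), TGANTCA (AP-1), GAAANNGAA (a part of the interferon element ISRE) or GAGGAAGT (PU.1, the myeloid factor). The first 3 windows overlap peaks that rose.
Tnfsf18, chr1:161494407-161494706, plus strand: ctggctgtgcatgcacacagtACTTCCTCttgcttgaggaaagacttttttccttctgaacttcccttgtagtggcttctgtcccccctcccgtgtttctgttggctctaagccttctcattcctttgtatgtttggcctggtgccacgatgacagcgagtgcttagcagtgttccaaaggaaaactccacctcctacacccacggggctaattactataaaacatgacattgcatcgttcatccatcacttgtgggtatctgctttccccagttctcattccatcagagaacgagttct
Tnfsf15, chr4:63745010-63745309, minus strand: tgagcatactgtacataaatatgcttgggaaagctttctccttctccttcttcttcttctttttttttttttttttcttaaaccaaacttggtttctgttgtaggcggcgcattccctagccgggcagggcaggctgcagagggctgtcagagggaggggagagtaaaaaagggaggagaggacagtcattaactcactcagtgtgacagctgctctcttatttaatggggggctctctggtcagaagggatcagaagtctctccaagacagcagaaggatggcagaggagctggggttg
Tnfsf13b, chr8:10006383-10006682, plus strand: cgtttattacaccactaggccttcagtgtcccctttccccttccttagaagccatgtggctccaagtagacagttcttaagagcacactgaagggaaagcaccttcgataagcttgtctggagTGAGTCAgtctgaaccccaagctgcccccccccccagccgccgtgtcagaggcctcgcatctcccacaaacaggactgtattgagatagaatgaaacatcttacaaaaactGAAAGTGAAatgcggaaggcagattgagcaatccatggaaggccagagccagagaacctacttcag
The other 3 windows overlap peaks that fell.
Tnfrsf1a, chr6:125349473-125349772, plus strand: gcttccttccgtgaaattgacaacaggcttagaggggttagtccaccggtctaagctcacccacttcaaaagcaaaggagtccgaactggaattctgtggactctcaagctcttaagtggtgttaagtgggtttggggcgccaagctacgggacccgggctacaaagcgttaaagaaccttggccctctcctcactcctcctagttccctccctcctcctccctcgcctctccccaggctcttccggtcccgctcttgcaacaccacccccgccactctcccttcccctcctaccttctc
Tnfrsf13c, chr15:82224331-82224630, minus strand: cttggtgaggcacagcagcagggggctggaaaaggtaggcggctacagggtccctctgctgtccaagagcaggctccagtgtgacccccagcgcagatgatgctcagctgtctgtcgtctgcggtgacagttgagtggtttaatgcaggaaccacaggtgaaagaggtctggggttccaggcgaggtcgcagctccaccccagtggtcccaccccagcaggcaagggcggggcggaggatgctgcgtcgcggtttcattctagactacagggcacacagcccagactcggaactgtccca
Tnfrsf25, chr4:152115684-152115983, plus strand: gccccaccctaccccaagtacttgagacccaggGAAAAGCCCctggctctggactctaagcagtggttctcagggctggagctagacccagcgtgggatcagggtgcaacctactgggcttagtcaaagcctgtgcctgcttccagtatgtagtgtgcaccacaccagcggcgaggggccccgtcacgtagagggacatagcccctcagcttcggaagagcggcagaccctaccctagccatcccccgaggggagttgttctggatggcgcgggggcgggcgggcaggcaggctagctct
Tnfsf18 holds a PU.1 match, Tnfsf13b an AP-1 and an ISRE match, and Tnfrsf25 an NF-κB match, while the windows of Tnfsf15, Tnfrsf1a and Tnfrsf13c hold none of these 4 motifs. The Tnfrsf25 match lies outside the peak that fell, which overlaps 154 bases of the window. Of the 29 genes, 23 have such a window, with 27 windows in all. NF-κB letters occur in 3 of these 27 windows, against 4.36% of all 32851 RefSeq windows of the same length. AP-1 letters occur in 6 windows of 5 genes (7.81% of all windows), ISRE in 6 windows (8.56%) and PU.1 in 1 (3.2%). A match of letters is a description and not a binding site.

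The deposited tables give only the mean of either group of a phase, in columns called A and B here, and the headers do not say which of the 2 is diabetic. The whole reads of all 12 libraries could be solved from these means for all 250 member peaks, so that libraries are named below by phase, column and a number of convenience, such as Rest A1. Column A of one phase need not be column A of another. Log2 levels are log2(reads + 1) after quantile scaling over the 12 libraries and compare libraries, not genes. Reads in peaks ran from 3832347 (Second B1) to 18617444 (Rest A1) per library, and the median member peak held 10 to 68.5 reads. The variance between First A1 and A2 was 1.17 times that of sampling noise, and they were counted as 1 library, so the first phase has n = 3 and the others n = 4. In bulk libraries like these, fewer cells of a type and less accessible chromatin per cell cannot be told apart.

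Second-phase libraries did not form 1 group. Over 10 genes known to respond to IFN-γ and LPS (Nos2, Irf1, Cxcl10 and others), the summed log2 level was 12.09 in Second A1, 13.48 in Second A2, 12.18 in Second B1 and 13.83 in Second B2, against 11.90 to 12.04 in the 4 rest-phase libraries. All 10 of these genes lay above every rest-phase library in Second A2 and in Second B2, but 3 did so in Second A1 and 6 in Second B1. The variance of reads over sampling noise was 26.2 between Second A1 and Second A2 and 12.2 between Second B1 and Second B2. Between Second A1 and Rest A1, A2, B1 and B2 it was 2.29, 5.65, 14.4 and 18.2, and between Second B1 and the same libraries it was 2.65, 2.86, 11.7 and 11.04. Both lay nearer to the Rest A than to the Rest B libraries, and Second B1 was about as far from the Rest B libraries as from Second B2. The libraries labelled as second phase are therefore given singly wherever they differ.

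Marker levels also moved between the first and the rest phase. Macrophage markers were present throughout, with a summed log2 level of 12.98 to 13.45 in rest-phase and 12.65 to 13.04 in first-phase libraries, and 5 of 8 gene sums rose and 1 fell, among them Csf1r at 10.72 to 11.21 in rest-phase and 9.46 to 9.64 in first-phase libraries. All 6 neutrophil markers fell (9.34 to 10.11 in rest-phase and 11.81 to 12.80 in first-phase libraries), as did all 5 erythroid markers (9.55 to 9.74 and 10.59 to 11.37 in the same order). Of 6 B cell markers 4 fell (10.98 to 11.30 in rest-phase and 10.92 to 12.29 in first-phase libraries), and 1 of 5 T and NK cell markers fell (9.28 to 9.61 and 9.74 to 9.94). None of these lists is at 0 in a first-phase library, and their part in the results below was not tested.

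Between rest-phase and first-phase libraries, 37 of 112 ligand peaks rose and 9 fell, and 1 of 33 death-domain receptor peaks rose and 15 fell. The question here is how cells after 7 days with M-CSF differ from those of the first phase, with both mean columns of a phase pooled. By limma with adjustment over all 139557 solved peaks, 49 of the 250 member peaks rose and 50 fell at an adjusted p under 0.05, where 19.4% of all peaks rose and 19% fell. The members as a whole therefore passed about as often as other peaks did. The median log2 fold was 0.53 over the ligand peaks and -0.74 over the death-domain receptor peaks, and 66 and 17 of them were not called. Peaks of a gene or of neighbouring genes need not be independent. Of the 37 ligand rises, 19 lie at the neighbours Tnfsf4 and Tnfsf18, 10 at Tnfsf15 and Tnfsf8, and 5 at Tnfsf9 and Tnfsf14. Of the 15 death-domain receptor falls, 8 lie at Tnfrsf1a. Of 93 peaks of receptors without a death domain 8 rose and 26 fell (median -0.36), and of 12 peaks of decoy or soluble receptors 3 rose and none fell (median 0.19), beside a median over all peaks of 0.0046.

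Scaling to total reads in peaks moves the median of all peaks by 0.29, to a log2 fold of 0.29, and the member split to 68 higher and 33 lower, where 26.4% of all peaks were higher and 13.4% lower. Ligand peaks then split into 47 and 5, death-domain receptor peaks into 3 and 10, and receptors without a death domain into 14 and 18. The median of receptors without a death domain turns positive under that scaling (0.088) but lies below that of all peaks, and the median of decoy or soluble receptors turns to -0.0025 under median-of-ratios scaling.

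**Figure D1:**
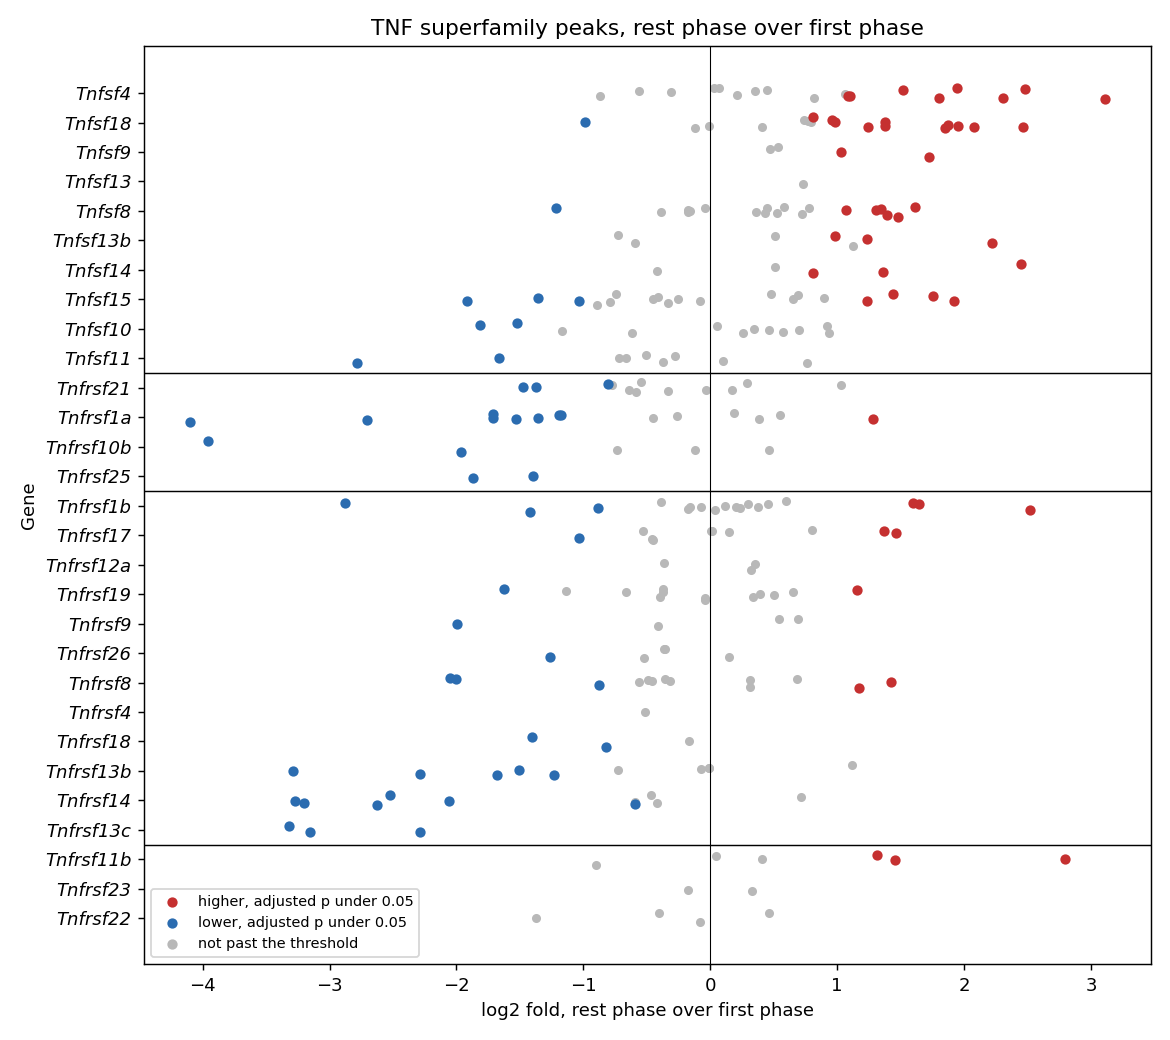
Log2 fold of each of the 250 member peaks (points), rest phase (n = 4) over first phase (n = 3), by gene, with genes grouped from the top as ligands, death-domain receptors, receptors without a death domain, and decoy or soluble receptors. Red points are the 49 peaks that rose and blue points the 50 that fell at an adjusted p under 0.05; the red points lie mostly among the ligands at the top.

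Tnfsf4 and Tnfsf18, the costimulatory ligands OX40L and GITRL, are neighbours on chromosome 1 and share the clearest rise. Of the 36 peaks assigned to either, over 268 kb, 19 rose and 1 fell. The leading Tnfsf4 peak lies at -33353 bases from the start (chr1:161361657-161362056, distal intergenic). It had log2 levels of 8.36, 7.51, 6.66 and 6.59 in Rest A1, A2, B1 and B2, against 3.55, 4.09, 4.45 and 4.22 in First A1, A2, B1 and B2. Rest A1 and A2 were highest, and the log2 fold was 3.11 ± 0.39 (SE, adjusted p 2.63e-05, limma). The leading peaks named here and below were chosen for large folds and for libraries that do not overlap between the phases. That the libraries of the phases lie apart at these peaks is therefore no result.

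The leading Tnfsf18 peak, annotated to the promoter at 2649 bases past the start (chr1:161497304-161497703), had 7.57, 7.45, 7.19 and 7.14 in the rest-phase libraries and 5.48, 5.08, 4.82 and 4.51 in the first-phase libraries. The log2 fold was 2.46 ± 0.27 (adjusted p 8.1e-06, limma). Under the Tnfsf18 window printed above, the peak at the start averaged 5.83 in the rest phase and 4.46 in the first phase (adjusted p 0.00569). Over all their peaks, the Tnfsf4 gene sum averaged 9.74 ± 0.52 in the rest phase (SD, n = 4) and 8.32 ± 0.14 in the first phase (n = 3), a log2 fold of 1.42 ± 0.23 (adjusted p 0.00055). The Tnfsf18 gene sum averaged 10.28 ± 0.14 in the rest phase and 8.98 ± 0.13 in the first phase, a log2 fold of 1.31 ± 0.12 (adjusted p 1.33e-05).

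Other ligands rose at fewer sites. Tnfsf15, the ligand TL1A of the receptor that Tnfrsf25 encodes, rose at its promoter (chr4:63745087-63745486), with 5.94, 5.74, 6.08 and 5.96 in the rest-phase libraries and 1.46, 2.81, 4.74 and 4.99 in the first-phase libraries. Its 2 columns differ within the first phase, where A1 and A2 lie below B1 and B2. A distal Tnfsf15 peak 32858 bases past the start fell (log2 fold -1.91 ± 0.36, adjusted p 0.000703), and over its 19 peaks 4 rose and 3 fell. Tnfsf14, known as LIGHT, a ligand of the receptor of Tnfrsf14, rose 21416 bases past its start (chr17:57172362-57172761), with 6.10, 5.13, 7.27 and 7.17 in the rest-phase libraries and 4.07, 3.85, 3.20 and 4.76 in the first-phase libraries. Its promoter peak averaged 7.81 in the rest phase and 8.23 in the first phase and did not pass (adjusted p 0.12, limma).

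Tnfsf13b, the B cell survival factor BAFF, rose most at an exonic peak at -4774 bases from an annotated start (chr8:10026145-10026544), with 5.45, 4.91, 4.78 and 5.46 in the rest-phase libraries and 3.82, 2.25, 2.35 and 3.21 in the first-phase libraries (log2 fold 2.22 ± 0.37, adjusted p 0.000294). Its promoter peak, at another annotated start (chr8:10006449-10006848), averaged 7.47 in the rest phase and 6.49 in the first phase (adjusted p 0.0146). Tnfsf9, a costimulatory ligand for T cells, rose at a peak -6625 bases from its start, annotated to an intron upstream of it (log2 fold 1.73 ± 0.36, adjusted p 0.00171). Tnfsf8, the CD30 ligand, rose at a distal peak (1.61 ± 0.26, adjusted p 0.00022). The promoter peaks nearest the start of Tnfsf9 (log2 fold 0.47, adjusted p 0.158, limma) and Tnfsf8 (-0.17, adjusted p 0.657) did not pass.

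Tnfsf11, which encodes RANKL, the cytokine that drives osteoclast formation, went the other way. Its promoter peak, 735 bases past the start (chr14:78306909-78307308), had 2.60, 2.17, 4.20 and 1.87 in the rest-phase libraries and 6.34, 5.60, 5.73 and 4.76 in the first-phase libraries. The log2 fold was -2.79 ± 0.53 (adjusted p 0.000741, limma). Tnfsf10, the death ligand TRAIL, fell at 2 of its 12 peaks and rose at none. Tnfsf13, the B cell factor APRIL, has 1 peak, which averaged 7.32 in the rest phase and 6.59 in the first phase and did not pass (adjusted p 0.0649).

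**Figure D2:**
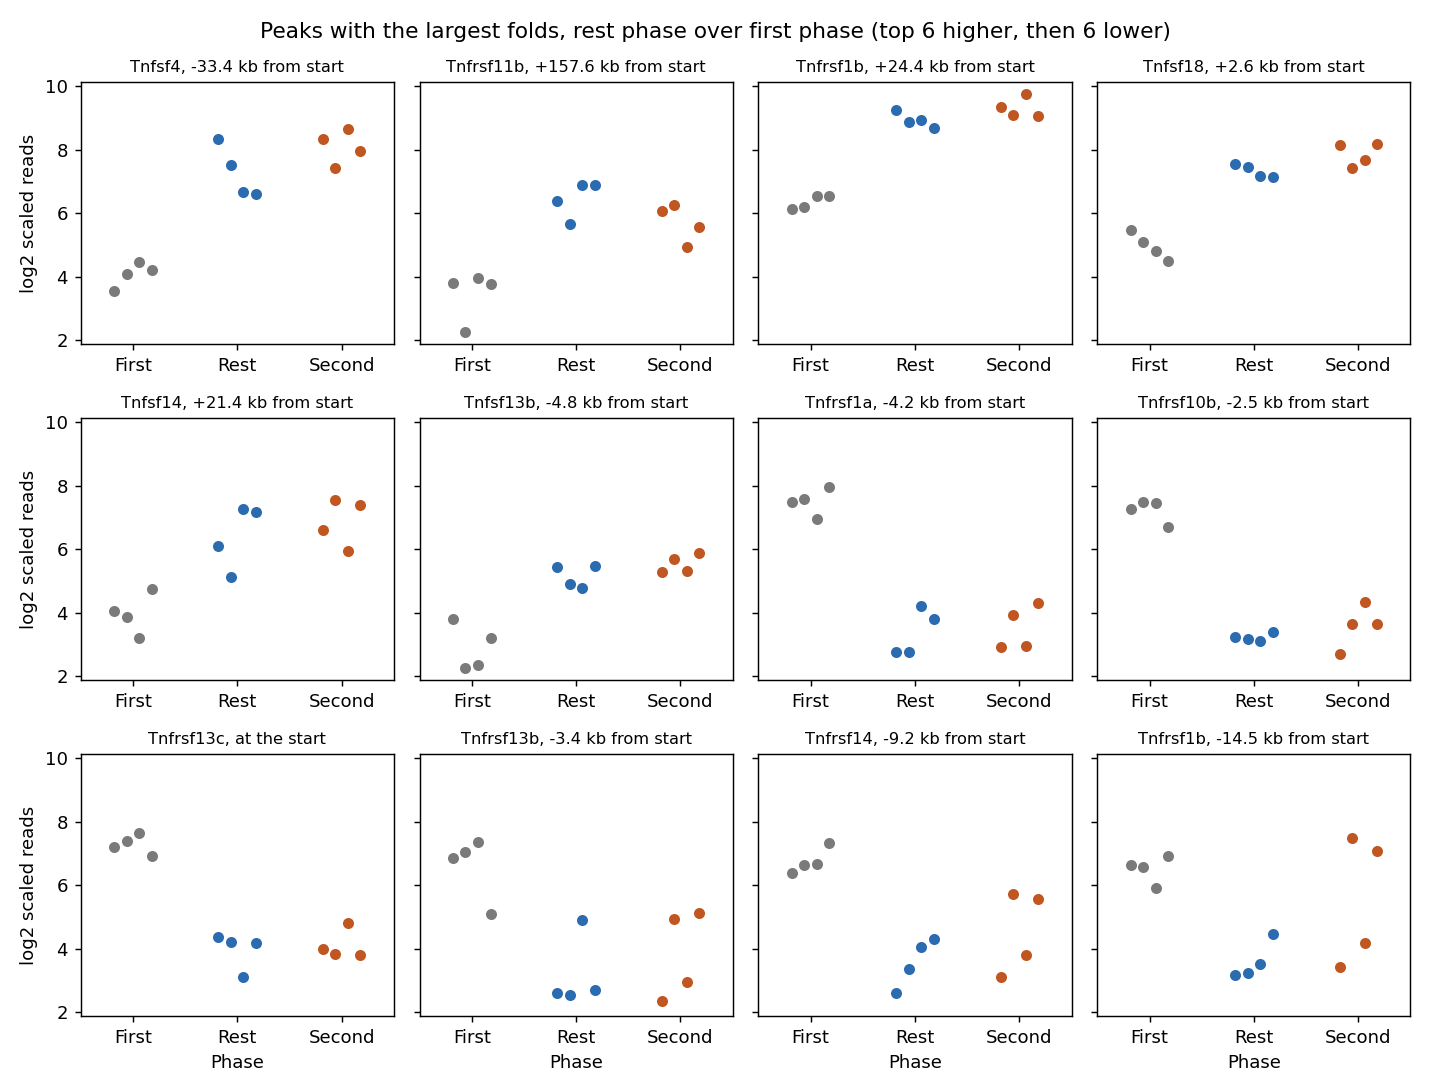
Log2 level (y axis) of 12 peaks in each library (points) by phase (x axis; from left to right within a phase A1, A2, B1 and B2): the 6 genes with the largest rises and then the 6 with the largest falls in rest-phase over first-phase libraries, with the distance of the peak from the start. Rest-phase points lie apart from first-phase points in every panel because the peaks were chosen so, and this is no result. The last panel (Tnfrsf1b) shows Second A2 and B2 at 7.50 and 7.07 beside A1 and B1 at 3.42 and 4.18.

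Among death-domain receptors, Tnfrsf1a, the TNF receptor present on most cells, fell at 8 of its 14 peaks and rose at 1. The largest fall of any named peak was at -4196 bases from its start (chr6:125344856-125345255). This peak is annotated to a 3′ UTR, which lies upstream of Tnfrsf1a and so is not its own. It had 2.77, 2.77, 4.20 and 3.79 in the rest-phase libraries, against 7.51, 7.58, 6.94 and 7.97 in the first-phase libraries, a log2 fold of -4.10 ± 0.40 (adjusted p 4.22e-06). Its promoter peak averaged 6.48 in the rest phase and 7.84 in the first phase (log2 fold -1.36, adjusted p 0.00247).

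The sum over all Tnfrsf1a peaks moved less, with 10.13, 10.15, 10.04 and 9.96 in the rest-phase libraries and 10.64, 10.63, 10.09 and 11.12 in the first-phase libraries. First B1 lay within the rest-phase range. First B2, the highest, also had the highest neutrophil marker level (12.80), and First B1 the lowest (11.81). The log2 fold of -0.54 ± 0.19 passed narrowly (adjusted p 0.0351). It failed without First A (-0.53), First B2 (-0.29), Rest B1 (-0.53) or Rest B2 (-0.51), and also with total reads in peaks (-0.22), median-of-ratios scaling (-0.55) and limma-voom weights (-0.086).

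Tnfrsf10b, the mouse TRAIL receptor with a death domain, fell at a peak annotated to a promoter, at -2500 bases from an annotated start (chr14:69774570-69774969). This peak had 3.22, 3.18, 3.12 and 3.38 in the rest-phase libraries against 7.27, 7.49, 7.45 and 6.72 in the first-phase libraries (log2 fold -3.96 ± 0.31, adjusted p 9.35e-07). The peak at another annotated start of the gene (chr14:69767333-69767732) averaged 4.97 in the rest phase and 5.09 in the first phase and did not pass (adjusted p 0.806). Tnfrsf25, the death receptor DR3 of lymphocytes, fell at both of its peaks, and its gene sum averaged 4.79 ± 0.50 in the rest phase and 6.48 ± 0.18 in the first phase (log2 fold -1.69 ± 0.30, adjusted p 0.000837). Tnfrsf21, death receptor DR6, fell at 3 of 12 peaks, and its promoter averaged 8.13 in the rest phase and 7.96 in the first phase (adjusted p 0.487).

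Tnfrsf13c and Tnfrsf13b, which encode receptors of BAFF, fell, as did 4 of the 6 B cell markers. At the promoter of Tnfrsf13c, the BAFF receptor (chr15:82224297-82224696), log2 levels were 4.38, 4.20, 3.12 and 4.20 in the rest-phase libraries and 7.19, 7.41, 7.65 and 6.92 in the first-phase libraries. The log2 fold was -3.32 ± 0.35 (adjusted p 7.12e-06, limma), and all 3 Tnfrsf13c peaks fell. Tnfrsf13b, which encodes TACI, fell at 5 of 10 peaks, led by one at -3406 bases from the start (chr11:61122950-61123349) with 2.60, 2.54, 4.91 and 2.70 in the rest-phase libraries and 6.87, 7.04, 7.37 and 5.11 in the first-phase libraries. Its promoter peak, at an annotated start (chr11:61142254-61142653), averaged 6.58 in the rest phase and 6.59 in the first phase and did not pass (adjusted p 0.976, limma).

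First B2 was the lowest first-phase library at the Tnfrsf13c promoter, at the leading Tnfrsf13b peak and also in the B cell marker sum (10.92, against 12.05 to 12.29 in the other first-phase libraries). Its Tnfrsf13c gene sum was 8.13, and those of the rest-phase libraries were 5.77 to 6.20. Of single B cell markers that fell, Cd79a had 3.36 to 4.96 in rest-phase libraries and 6.20 in First B2, Pax5 6.88 to 7.78 and 8.79, and Cd79b 7.69 to 8.07 and 8.61. The markers Ms4a1 (8.10 to 9.33 in rest-phase libraries and 8.04 in First B2) and Blnk (9.99 to 10.46 and 9.20) did not pass. The part of B cells in these results was not tested. Without First B2 the same Tnfrsf13c and Tnfrsf13b peaks kept their call. Their direction could not change, because First B2 was the lowest first-phase library at both, so this says nothing on the part of B cells. Tnfrsf17, the plasma cell receptor BCMA, behaved otherwise, with 2 peaks that rose and 1 that fell of 10, and a gene sum of 8.02 in the rest phase and 7.90 in the first phase (adjusted p 0.548).

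Among receptors of costimulation, Tnfrsf14, the receptor HVEM, fell at 6 of 10 peaks and rose at none. Its leading peak at -9193 bases from the start (chr4:154937756-154938155) had 2.60, 3.36, 4.04 and 4.30 in the rest-phase libraries and 6.40, 6.65, 6.68 and 7.33 in the first-phase libraries (log2 fold -3.27 ± 0.41, adjusted p 2.62e-05). Tnfrsf8 (CD30) rose at 2 and fell at 3 of 13 peaks, Tnfrsf9 fell at 1 of 4, and Tnfrsf18 (GITR) at 2 of 3, one of them its promoter peak (4.98 in the rest phase and 6.39 in the first phase, adjusted p 0.00271). The single Tnfrsf4 (OX40) peak averaged 4.14 in the rest phase and 4.66 in the first phase and did not pass (adjusted p 0.303). For the gene sums, the log2 folds of ligand and receptor were 1.42 and -0.51 for Tnfsf4 and Tnfrsf4, 1.31 and -0.74 for Tnfsf18 and Tnfrsf18, and 0.46 and -0.88 for Tnfsf14 and Tnfrsf14. Of these 6 sums all but Tnfrsf4 passed (adjusted p 0.252 for Tnfrsf4).

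Tnfrsf1b, the second TNF receptor, which lacks a death domain, held peaks that moved in both directions. An intronic peak 24448 bases past the start (chr4:145222023-145222422) had 9.26, 8.88, 8.94 and 8.67 in the rest-phase libraries and 6.14, 6.18, 6.54 and 6.54 in the first-phase libraries, a log2 fold of 2.52 ± 0.19 (adjusted p 7.81e-07). A distal peak at -14507 bases from the start (chr4:145261377-145261776) had 3.18, 3.22, 3.53 and 4.45 in the rest-phase libraries and 6.64, 6.57, 5.90 and 6.92 in the first-phase libraries, a log2 fold of -2.88 ± 0.39 (adjusted p 4.84e-05). Of its 18 peaks 3 rose and 3 fell, and its promoter peak fell, with an average of 7.02 in the rest phase and 7.91 in the first phase (adjusted p 0.00369).

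Among decoy and soluble receptors, Tnfrsf11b, which encodes osteoprotegerin, the soluble decoy of RANKL, rose at 3 of 6 peaks. The leading one, 157579 bases past the start (chr15:54120506-54120905), had 6.37, 5.66, 6.89 and 6.88 in the rest-phase libraries and 3.82, 2.25, 3.96 and 3.76 in the first-phase libraries (log2 fold 2.80 ± 0.36, adjusted p 3.18e-05). Its promoter peak averaged 4.34 in the rest phase and 3.93 in the first phase and did not pass (adjusted p 0.501). Tnfrsf22 and Tnfrsf23, the mouse decoy receptors of TRAIL, had no peak past the threshold among 4 and 2.

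Summed over all peaks of a gene, 8 of the 29 genes rose and 10 fell, where 22.1% of 19377 genes rose and 26% fell. Those that rose were Tnfsf4, Tnfrsf11b (1.32), Tnfsf18, Tnfsf9 (0.92), Tnfsf8 (0.68), Tnfsf13b (0.66), Tnfrsf1b (0.51) and Tnfsf14 (0.46), with log2 folds in parentheses where not given above. Those that fell were Tnfrsf13c (-2.76), Tnfrsf25, Tnfrsf10b (-1.53), Tnfrsf14 (-0.88), Tnfrsf13b (-0.85), Tnfrsf18 (-0.74), Tnfsf11 (-0.73), Tnfrsf1a, Tnfrsf8 (-0.48) and Tnfrsf26 (-0.48). Of the 8 that rose 6 are ligands, and of the 10 that fell 9 are receptors, where 10 of the 29 genes are ligands and the rest receptors.

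With total reads in peaks 12 genes rose and 4 fell, where 30% of all genes rose and 23.2% fell, and with median-of-ratios scaling 7 rose and 6 fell, where 17.9% rose and 34.1% fell. With total reads in peaks Tnfrsf13b (-0.32), Tnfrsf18 (-0.21), Tnfrsf8 (-0.059), Tnfsf11 (-0.26) and Tnfsf14 (0.50) did not pass either, and Tnfrsf26 turned positive (0.058). With median-of-ratios scaling Tnfrsf1b (0.31), Tnfrsf18 (-0.53), Tnfrsf8 (-0.39), Tnfrsf26 (-0.27) and Tnfsf14 (0.17) did not pass. The call was lost for Tnfsf13b without First A (0.62), First B1 (0.46), Rest A1 (0.57) or Rest A2 (0.64), and for Tnfsf14 without First A (0.43), First B1 (0.30), Rest A1 (0.40) or Rest A2 (0.45). It was lost for Tnfrsf26 without First A (-0.42), First B2 (-0.38), Rest A1 (-0.43), Rest A2 (-0.40) or Rest B2 (-0.50). The 20 leading peaks, which were chosen for large folds and libraries that do not overlap, kept their direction and call in all 280 values of the alternatives run.

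**Figure D3:**
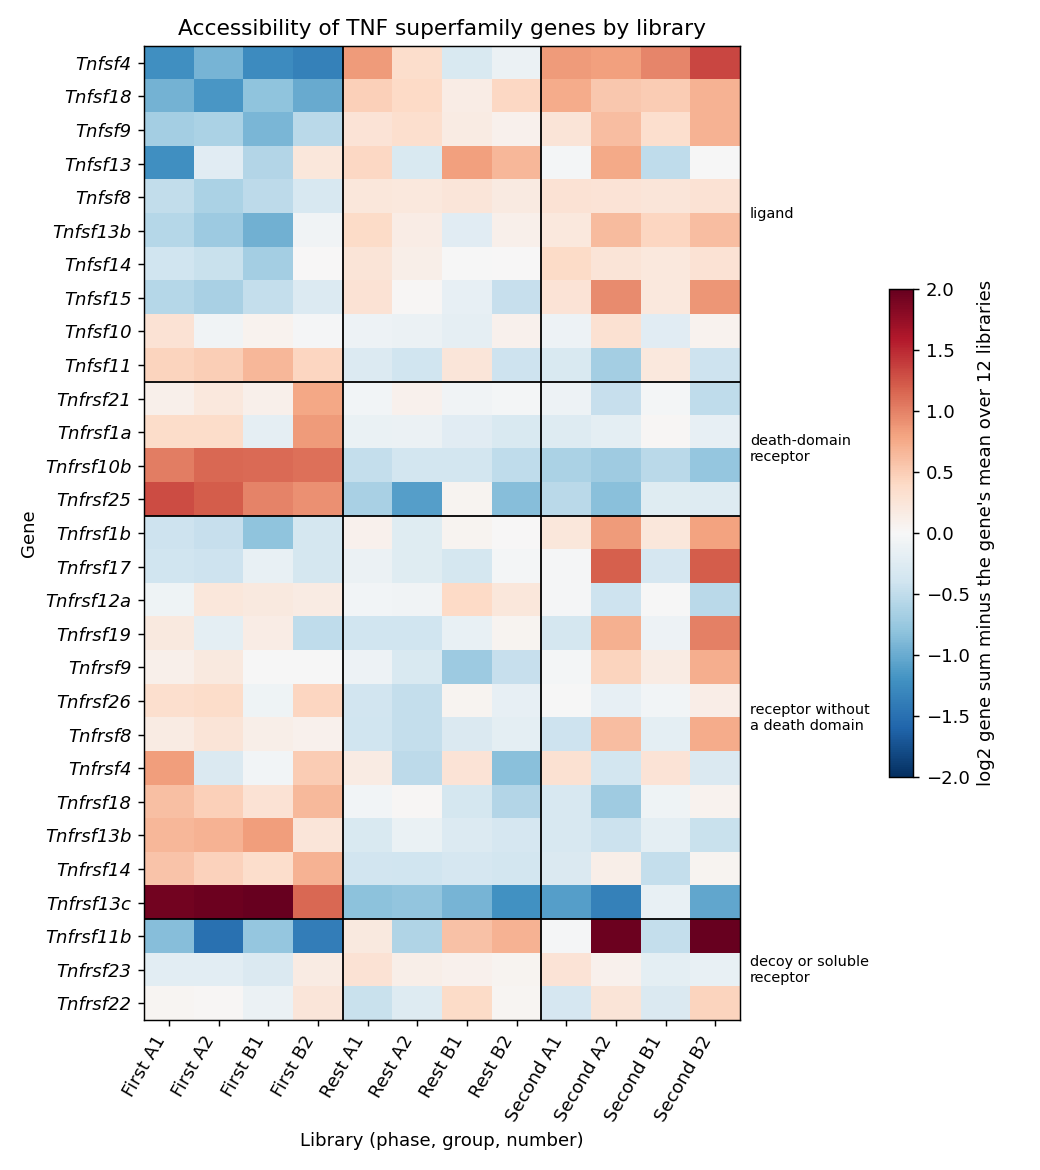
Log2 gene sum of each of the 29 genes (rows, by role and then by rest-over-first fold) in each of the 12 libraries (columns, by phase) minus the mean of the gene over the 12 libraries; colours are clipped at 2 above and below. Tnfsf18 is red in all rest-phase and second-phase libraries and blue in all first-phase libraries, Tnfrsf10b is blue and red in the same libraries, and Tnfrsf11b is darkest in Second A2 and Second B2 (9.26 and 9.48).

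Family members under other symbols and the adaptors below the receptors were read by gene sums as well, beside 22.1% of all genes that rose and 26% that fell. Of 14 family genes with peaks (Tnf, Fas, Cd40 and others), none rose and 7 fell by gene sums, among them Ltb, a lymphotoxin subunit (log2 fold -2.06, adjusted p 3.15e-05), and Fasl, the Fas ligand (-0.80). Tnf itself had 9.19 to 9.73 in the rest-phase and 8.73 to 9.30 in the first-phase libraries and did not pass (adjusted p 0.0949). Of 15 adaptors and enzymes 5 rose, including Fadd, the adaptor of death receptors (1.68), Cflar, an inhibitor of caspase activation (0.74), and Casp8 (0.56), and 6 fell, including Traf4 (-0.92), Tradd (-0.79) and Birc3 (-0.67).

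Counts by position were as follows. Of 58 promoter peaks 6 rose and 16 fell (10.3% and 27.6%), where 15.2% of all promoter peaks rose and 27.1% fell. Of 127 distal peaks 32 rose and 21 fell (25.2% and 16.5%), where 20.8% of all distal peaks rose and 15.9% fell. Promoters that fell include those of Tnfrsf13c, Tnfrsf25, Tnfrsf19, Tnfrsf18, Tnfrsf1a and Tnfrsf1b, and promoters that rose include those of Tnfsf15, Tnfsf18, Tnfsf4 and Tnfsf13b.

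Stimulation with IFN-γ and LPS was asked about by the second phase against the rest phase, n = 4 each. No member peak passed at an adjusted p under 0.05 by limma, nor did any of all peaks (0%), and no gene sum passed among members or among all genes (0%). With limma-voom weights the count was also 0. At an unadjusted p under 0.05, 39 of 250 member peaks were higher and 4 lower, where 6.57% of all peaks were higher and 4.87% lower. For gene sums 6 of 29 were higher at an unadjusted p under 0.05 and none lower, where 4.36% of all genes were higher and 7.98% lower. Leaving out any one library, Second A1 or Second B1 included, left the count at 0.

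Member peaks were also read in each second-phase library singly. Over member peaks the median range of the 4 libraries was 1.20 log2 units in the second phase and 0.88 in the rest phase, and over all peaks it was 1.09 and 0.89. A level more than 2 log2 units above the rest-phase mean was reached by no member peak in Second A1, 30 in Second A2, 1 in Second B1 and 37 in Second B2. Of all peaks, 0.0043%, 3.64%, 0.217% and 4.59% did so in the same libraries. In Second A2 and Second B2 together 29 member peaks lay that high (11.6%, against 3.18% of all peaks), of which 22 are distal intergenic and 1 is at a promoter. No test was made between libraries sorted by their values.

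**Figure D4:**
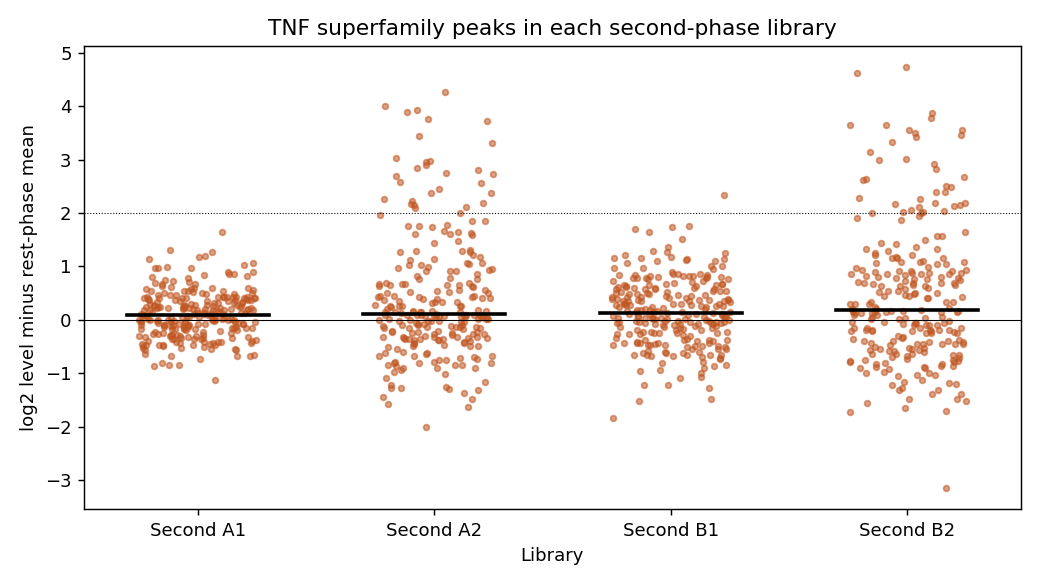
Log2 level of each of the 250 member peaks (points) minus its mean over the 4 rest-phase libraries (y axis) in each second-phase library (x axis); black bars are medians and the dotted line marks 2. Second A2 and Second B2 have 30 and 37 peaks above the line, Second A1 none and Second B1 1.

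The 29 peaks belong to 14 genes, with 5 at Tnfrsf1b, 4 each at Tnfrsf19 and Tnfsf15 and 3 each at Tnfrsf11b and Tnfsf4. The peaks named next are those with the widest range over second-phase libraries, chosen after their values were seen. The Tnfrsf11b peak 51032 bases past the start (chr15:54227053-54227452) had 3.49, 7.81, 3.45 and 8.54 in Second A1, A2, B1 and B2, against 3.36, 2.77, 4.91 and 4.20 in the rest-phase libraries. A Tnfsf8 peak at -73987 bases from the start (chr4:63935334-63935733) had 2.81, 6.87, 3.45 and 7.22 in the second-phase and 2.32, 2.32, 2.54 and 3.21 in the rest-phase libraries. Second A2 and B2 stand above every rest-phase library at both peaks, and Second A1 and B1 lie among or near the rest-phase values.

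A Tnfsf15 peak at -12661 bases from the start (chr4:63757774-63758173) had 2.70, 6.83, 3.22 and 6.84 in the second-phase and 2.70, 2.17, 3.87 and 3.53 in the rest-phase libraries. A Tnfrsf17 peak at -27477 bases from the start (chr16:11285936-11286335) had 5.59, 8.48, 4.33 and 8.72 in the second-phase and 5.39, 4.93, 4.51 and 5.86 in the rest-phase libraries. The same 2 libraries are high again. A Tnfrsf22 peak at -11057 bases from the start, annotated to an intron upstream of it (chr7:143660718-143661117), had 3.12, 6.46, 2.95 and 6.44 in the second-phase and 2.70, 3.29, 2.54 and 3.53 in the rest-phase libraries.

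At Tnfrsf1b and Tnfrsf14, such peaks were open in the first phase as well. The distal Tnfrsf1b peak described above, at 5.90 to 6.92 in first-phase and 3.18 to 4.45 in rest-phase libraries, had 3.42, 7.50, 4.18 and 7.07 in the second-phase libraries. A Tnfrsf14 peak at -14071 bases from the start (chr4:154942634-154943033), at 4.22 to 5.70 in first-phase and 1.87 to 3.36 in rest-phase libraries, had 2.35, 6.22, 2.95 and 5.52. Second A2 and B2 were thus near or above the first-phase levels at both peaks. A gene sum need not show such peaks. The Tnfsf8 gene sum was 9.96, 9.95, 9.92 and 9.96 in the second-phase and 9.90, 9.89, 9.91 and 9.85 in the rest-phase libraries, although its peak at -73987 bases varied as described above.

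**Figure D5:**
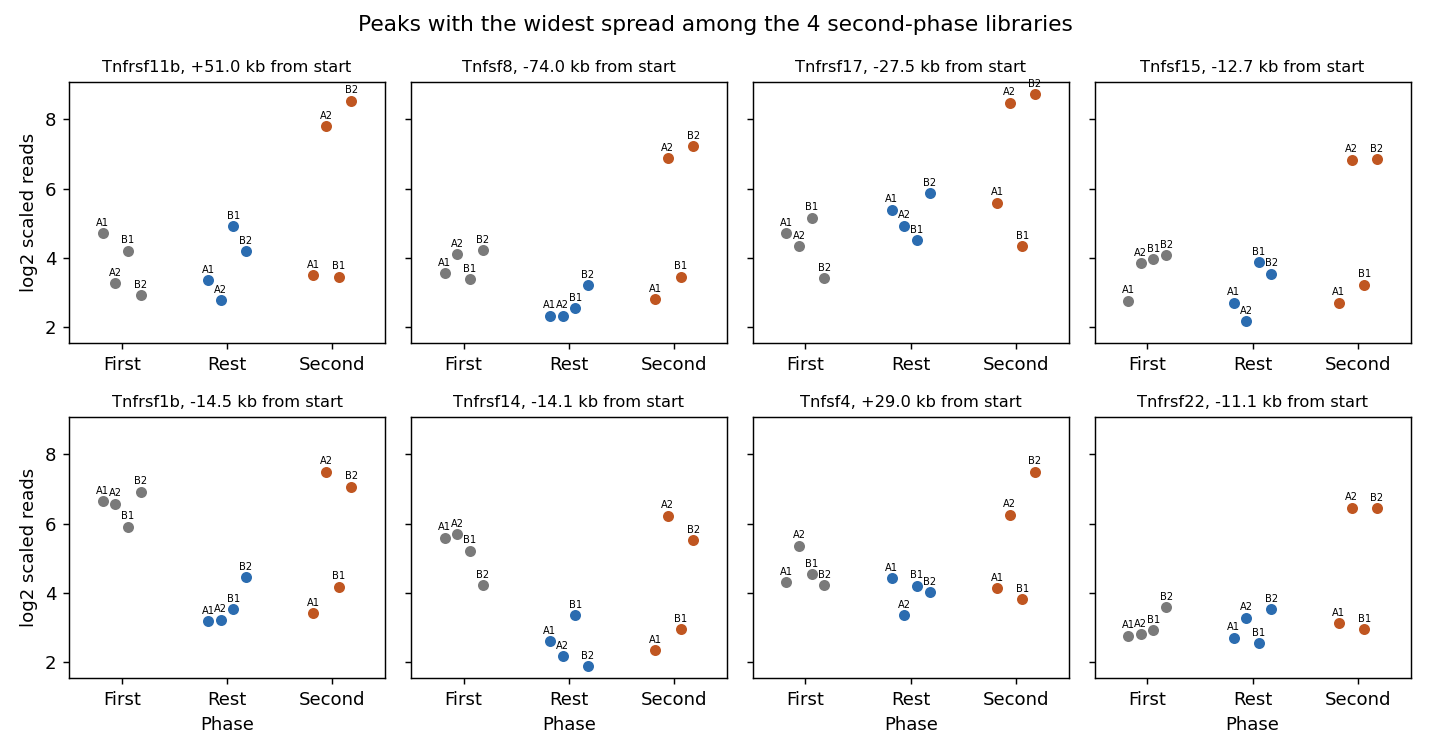
Log2 level (y axis) of the 8 member peaks with the widest range over second-phase libraries, in each library (points, named A1 to B2) by phase (x axis); chosen by this range, so that their spread is no result. Second A2 and Second B2 lie above Second A1 and Second B1 in each of the 8 panels.

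Within each phase the 2 mean columns of a table are diabetic or diabetic-trained cells and their controls, in an order that the headers do not give. Of the first phase, in the authors' deposited table, no member peak passed at an adjusted p under 0.05, nor any of all peaks (0%), and 2 of 250 had an unadjusted p under 0.05, beside 812 of all 139999 peaks. By limma on quantile-scaled reads none passed either, and at an unadjusted p under 0.05 there were 4 members higher and 3 lower in A, beside 3014 and 2604 of all 139557 peaks. The median difference of A minus B over members was 0.073 log2 units in the authors' deposited table, beside 0.046 over all peaks.

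Of the rest phase, in the authors' deposited table, 105 of 250 member peaks were higher in A (39.7% of all peaks) and none lower (0.0929% of all). The median difference of A minus B was 1.36 log2 units over members and 1.29 over all peaks. Reads in peaks were 18617444 and 16002834 in Rest A1 and A2 and 5459236 and 8775958 in Rest B1 and B2. A read of Rest A1 or A2 was worth 0.891 or 0.953 deposited units and a read of Rest B1 or B2 0.793 or 0.939, and the part of depth in the calls was not tested. After quantile scaling, limma called 23 member peaks higher in A (7.27% of all peaks) and 15 lower (6.23% of all).

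The member genes with the largest deposited folds of the rest phase passed in both ways of scaling. A Tnfrsf21 intronic peak (chr17:43052436-43052835) had mean log2 values of 7.12 in A and 3.63 in B and an adjusted p of 5.7e-05 in the authors' deposited table. After quantile scaling its levels were 6.32 and 5.92 in Rest A1 and A2 and 4.65 and 3.79 in Rest B1 and B2 (log2 fold 1.90 ± 0.34, adjusted p 0.00577, limma). A Tnfsf9 promoter peak at -1554 bases from the start had 5.93 and 5.52 in A and 3.12 and 4.36 in B (1.99 ± 0.42, adjusted p 0.0118). A distal Tnfsf15 peak at -27325 bases from the start had 6.48 and 5.95 in A and 4.51 and 4.36 in B (1.78 ± 0.29, adjusted p 0.0036).

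Distal peaks of Tnfsf4 and Tnfrsf13b went the same way. The Tnfsf4 peak at -67698 bases from the start had 6.25 and 5.88 in A and 4.20 and 4.74 in B (1.60 ± 0.30, adjusted p 0.00735). The Tnfrsf13b peak at -6339 bases from the start had 5.82 and 5.63 in A and 4.65 and 4.01 in B (1.40 ± 0.32, adjusted p 0.0173). These 5 peaks were chosen for a high A over B, so that their direction is no result, and the rule names none of the 15 that limma called lower in A.

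Of the second phase, in the authors' deposited table, 60 member peaks were higher in A (26.7% of all peaks) and none lower (0.00429% of all), and the median difference of A minus B was 1.10 log2 units over members and 1.14 over all peaks. After quantile scaling limma called none of the 250, and none had an unadjusted p under 0.05. Each second-phase mean averages 1 library with high and 1 with low levels of the stimulus genes. The peak with the largest deposited fold there (chr7:143689947-143690346) is assigned to Tnfrsf23, at -4075 bases from its start, and annotated to an exon upstream of it. It had means of 6.66 in A and 4.33 in B in the authors' deposited table (adjusted p 0.0242). Its quantile-scaled levels were 6.33 and 5.17 in Second A1 and A2 and 6.02 and 4.43 in Second B1 and B2 (log2 fold 0.53 ± 0.73, adjusted p 1, limma), so that the columns overlap.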

How the data were processed

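Chromatin accessibility was measured by ATAC-seq in 12 libraries. The authors deposited 1 table per phase over the same 139999 peaks, with log2 group means, a log2 fold change, p-values and adjusted p-values and the assigned gene. The submitters' processing notes name DESeq2, DiffBind 3.14.0, MACS2 and HOMER 5.1, the read tools Bowtie2 2.5.4 and Picard 3.2.0, the track tools bedtools 2.28.0 and deepTools 3.2.1, and the build mm10, without saying which did what. Neither the headers nor the labels tie the deposited log2 mean columns to diabetic or control cells.

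Each mean came from 2 libraries, as whole reads times a factor per library. Solving these factors gave exactly 1 pair of whole numbers for every mean not listed at 0 (largest relative miss 3.47e-09). The reads of all 12 libraries, which can be 0 in a library, were solved for 139557 peaks. In a simulation of 20000 peaks, 99.9949% of those with a mean not listed at 0 were recovered. Libraries were numbered by the worth of a read and could not be matched to the replicate numbers of the labels.

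Reads were quantile-scaled and log2(value + 1) was tested with limma 3.58.1 in R 4.3.3 (empirical Bayes with a trend on signal, Benjamini-Hochberg over all peaks, or all 19377 genes for sums over the peaks of a gene). On simulated reads with 200 planted changes, the share recovered for rest over first phase was 7% at 2-fold and 51% at 4-fold, and for second over rest phase 2% at 2-fold and 47% at 4-fold. For rest over first phase far more peaks passed in the data than were planted, so these shares need not hold there. Only the rest-phase table has its deposited fold as A over B; the other 2 were inverted to match. The genes and lists were chosen with earlier results of these data known. Named between phases were, for up to 10 genes in each direction, the passing peak of largest log2 fold whose libraries did not overlap. Also named, for part of the genes, were the promoter peak nearest the start and the gene sum. Within phases up to 5 genes in each direction were named by the largest deposited fold among passing peaks. Alternatives changed the scaling, pseudocount (4), filter (mean of at least 20 reads), weights, grouping, distance (50 kb) and libraries. One of the motifs searched is not reported here.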

Additional observations from a re-analysis of the deposited data

Results flagged for a closer look

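In 7 of 184 sets of 4 libraries of a phase (gene sums and named peaks of the members), 1 library lay far from the other 3 by Dixon's test, which chance alone flags in about 1 of 20 sets. In the rest phase, Rest B1 stood at 4.91 against 2.54 to 2.70 in the other libraries at the leading Tnfrsf13b peak, at 3.12 against 4.20 to 4.38 at the Tnfrsf13c promoter, and at 5.34 against 5.96 to 5.99 at a Tnfrsf17 intronic peak. Rest A2 stood at 5.31 against 5.79 to 5.80 at a Tnfrsf8 intronic peak, and Rest B2 at 4.97 against 4.04 to 4.20 at the Tnfrsf11b promoter peak. In the second phase, Second A1 stood at 7.80 against 7.02 to 7.12 at the Tnfrsf14 promoter peak, and Second B2 at 4.52 against 5.70 in each of the other 3 at the Tnfsf9 promoter peak.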

How the results depend on the processing

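Between the rest and first phases, the 49 higher peaks and the 18 genes called in either direction stayed within 1.5 times the reported count under the alternatives run. The 50 lower peaks became 33 with total reads in peaks, and the 10 lower genes became 4 with total reads in peaks and 6 with median of ratios. Leaving out 1 library at a time gave 42 to 54 higher peaks, 38 to 50 lower peaks and 14 to 18 genes. The Tnfrsf26 gene sum reversed with total reads in peaks (0.058, against -0.48); among the other alternative values of gene sums, 231 kept their direction and call and 38 kept their direction only. Second against rest phase stayed at 0 calls, against 39 and 4 at an unadjusted p under 0.05, a rule added after the data were seen. The 105 rest-phase peaks of the deposited table became 48 at an adjusted p under 0.01, a rule not counted over all peaks. They became 38 with limma on quantile-scaled reads, where 10149 of all 139557 peaks were higher and 8697 lower. With limma on total reads they became 58 (41 higher, 17 lower), where 18332 of all peaks were higher and 11561 lower. The 60 second-phase peaks became 0, 0 and 0, where limma called 0 of all peaks in either scaling. The cause of these changes was not tested. No paired analysis was possible because the mean columns carry no replicate numbers, so the solved libraries cannot be tied to the numbers in the labels. The median member peak held 10 to 68.5 reads, and in the simulation with 200 planted changes few 2-fold changes were recovered. Far more peaks passed in the data between the rest and first phases, so the simulated shares need not hold there. Promoter peaks of Tnfrsf1b (log2 fold -0.89) and Tnfsf13b (0.98) did pass between these phases. A peak that did not pass may still have changed.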
